A study of Homo sapiens with 6 samples.

Results

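The ribosomal protein paralog pairs studied here are 5 genes with an L suffix (RPL39L, RPS27L, RPL22L1, RPL26L1 and RPL7L1), each set beside the gene from which it takes its name (RPL39, RPS27, RPL22, RPL26 and RPL7). All 10 genes were found by symbol among the 26372 symbols measured. The pairs were chosen by name, but with their difference between shTDP43 and shNC in view, because RPL39L and RPS27L had the largest decreases among ribosomal protein genes. Differences between the groups are therefore given for these genes as a description, without p-values, and counts of members called in the fit over all genes support nothing about them. The cells were SH-SY5Y, an established human neuroblastoma line with neuron-like features. The shTDP43 cells carried a lentiviral short hairpin against TDP-43, the RNA-binding protein made by TARDBP, and the shNC cells carried a control hairpin in the same vector. Cells were selected and kept in puromycin, per the labels' protocols, and poly(A) RNA of 3 libraries per group was sequenced. A single hairpin was used, without a rescue among these samples, so an effect of TDP-43 cannot be told apart from another effect of the hairpin or from a difference between the infected populations. Whether the 3 libraries of a group stem from separate infections is not told by the labels, so p-values measure only the spread between these libraries, which may be technical.

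Ribosomal proteins, with ribosomal RNA, build the small and the large subunit of the ribosome, and most are made from a single gene that is among the most strongly expressed of the cell. A few have a second, intact gene copy whose product can take the place of the usual protein. RPL39 lines the tunnel through which the new protein leaves the large subunit, and RPL39L is known mainly from male germ cells. RPS27 belongs to the small subunit, and RPS27L is a known target gene of the tumour suppressor p53. RPL22 and RPL26 are proteins of the large subunit that also bind other RNAs, p53 mRNA in the case of RPL26, and in mice RPL22 represses the gene of its paralog. RPL7 is a large subunit protein, while RPL7L1 is related to a yeast factor of ribosome assembly. Messages of ribosomal proteins usually begin with a cytosine followed by a run of pyrimidines, the 5' TOP motif, through which their translation is controlled.

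The coding sequences of the pairs with the largest decreases show how unlike the copies are. They were read from GENCODE 29 transcripts (GRCh38) from start to stop codon, and capitals mark the bases that differ within the pair. RPL39L (chr3:187121145-187121300, minus strand) has its whole coding sequence in 1 exon, against 3 coding exons in RPL39 (chrX:119786684-119791576, minus strand). Both are 156 bases long and differ at 8 bases.

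RPL39L: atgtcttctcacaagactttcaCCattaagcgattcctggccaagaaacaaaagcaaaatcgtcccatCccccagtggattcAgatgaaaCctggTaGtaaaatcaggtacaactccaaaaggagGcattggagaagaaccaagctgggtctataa

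RPL39: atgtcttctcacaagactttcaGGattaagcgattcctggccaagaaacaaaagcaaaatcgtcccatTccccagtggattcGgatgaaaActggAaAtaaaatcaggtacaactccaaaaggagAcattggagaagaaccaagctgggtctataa

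Of the 52 codons of this pair, 7 differed and 4 of those changed the amino acid. RPS27L (chr15:63154032-63157405, minus strand) and RPS27 (chr1:153990797-153992093, plus strand) each have 4 coding exons and 255 coding bases, of which 56 differ.

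RPS27L: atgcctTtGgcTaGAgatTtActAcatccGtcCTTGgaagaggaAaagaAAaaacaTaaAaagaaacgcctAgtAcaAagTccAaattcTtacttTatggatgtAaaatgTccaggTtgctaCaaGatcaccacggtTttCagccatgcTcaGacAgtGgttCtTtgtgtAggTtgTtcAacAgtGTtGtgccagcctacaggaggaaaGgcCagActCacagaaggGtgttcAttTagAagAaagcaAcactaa

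RPS27: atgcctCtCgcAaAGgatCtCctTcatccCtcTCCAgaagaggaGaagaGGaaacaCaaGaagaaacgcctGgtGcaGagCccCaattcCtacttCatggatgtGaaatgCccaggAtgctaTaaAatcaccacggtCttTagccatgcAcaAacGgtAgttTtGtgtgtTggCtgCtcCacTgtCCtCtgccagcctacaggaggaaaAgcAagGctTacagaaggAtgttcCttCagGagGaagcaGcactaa

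In this pair 48 of 85 codons differed, 45 of them without changing the amino acid, and 48 of the 56 base differences lay at the third codon position. RPL26L1 and RPL26 were alike in this respect, with 69 differences over 438 bases (84.2% identity), 64 of 146 codons different and 2 amino acids changed. The coding sequences of RPL22L1 and RPL22 aligned with 66.6% identity, and those of RPL7L1 and RPL7 with 55.6%, both with gaps. In these 3 pairs of equal length only 2 to 4 codons thus changed the amino acid.

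How far a sequenced fragment can tell the copies apart differed between pairs. Of the 707 windows of 50 bases in the RPL39L transcript, 97 (13.7%) matched the RPL39 transcript with at most 2 mismatches, and 18 matched it exactly. The longest identical stretch of the 2 transcripts was 67 bases. In the other 4 pairs no such window matched, and the longest identical stretch was 20 bases or less. No source used here gives the read length or the treatment of reads with several matches, so the value of RPL39L may hold fragments of RPL39, whose level is far higher. The table lists no gene named as a pseudogene of any of the 10 members, while such copies of ribosomal protein genes lie elsewhere in the genome, which leaves the same uncertainty for the parent genes.

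The starts of the transcripts set the parents apart from most of the paralogs. The windows below run from 10 bases before to 20 bases after the start in RefSeq (GRCh38.p14), and capitals mark the longest run of C or T.

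RPS27L (chr15:63157458-63157487, minus strand): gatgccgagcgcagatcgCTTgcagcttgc

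RPS27 (chr1:153990752-153990781, plus strand): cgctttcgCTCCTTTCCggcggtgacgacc

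RPL22L1 (chr3:170870176-170870205, minus strand): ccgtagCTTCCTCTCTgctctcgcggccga

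RPL22 (chr1:6199576-6199605, minus strand): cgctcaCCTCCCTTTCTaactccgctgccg

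RPL26L1 (chr5:172958719-172958748, plus strand): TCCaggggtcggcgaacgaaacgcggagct

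RPL26 (chr17:8383174-8383203, minus strand): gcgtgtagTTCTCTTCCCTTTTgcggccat

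RPL7L1 (chr6:42879606-42879635, plus strand): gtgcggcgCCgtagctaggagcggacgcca

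RPL39 (chrX:119791611-119791640, minus strand): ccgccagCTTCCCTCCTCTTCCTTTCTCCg

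The run was 9 bases in RPS27, 11 in RPL22, 14 in RPL26 and 22 in RPL39. Among the paralogs it was 10 bases in RPL22L1, against 3 in RPS27L, 3 at either annotated start of RPL26L1 and 2 in RPL7L1. A run of at least 8 bases was present in 54 of 63 core ribosomal protein genes (85.7%) and in 16.9% of 14896 protein-coding genes. RPL22L1 is thus the one paralog of these 4 whose annotated start resembles that of the family. A run of pyrimidines is a description of these letters and not a measured TOP message.

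**Figure D1:**
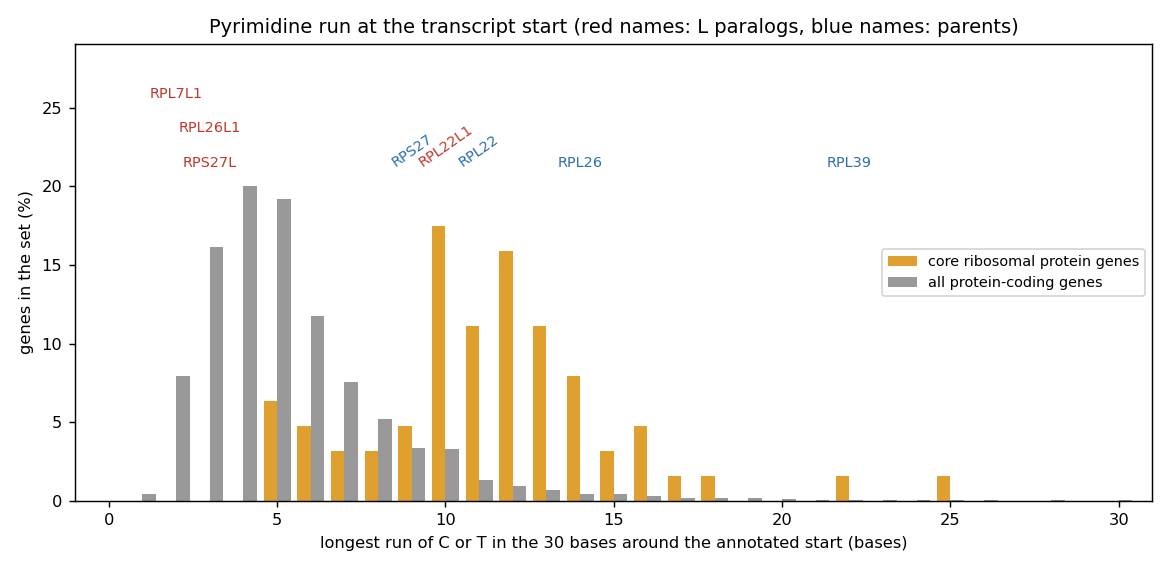
Bars give the percentage of genes (vertical axis) by the length in bases of the longest run of C or T around the annotated start (horizontal axis), for 63 core ribosomal protein genes and for 14896 protein-coding genes. Names stand at the run of each pair member, RPL39 farthest right at 22 bases and RPL7L1 farthest left at 2.

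Levels were taken as FPKM, that is fragments scaled to transcript length and library size, which allows genes to be compared per length. The files hold no read totals, and steps among the lowest values gave rough relative depths of 1, 1.117 and 1.094 for the shTDP43 libraries and 1.275, 1.275 and 1.157 for the shNC libraries. TARDBP itself had 36.0, 33.1 and 34.8 FPKM in shTDP43 and 56.1, 56.2 and 56.6 FPKM in shNC, 61.5% of the control level (limma adjusted p = 2.84e-06). By exact two-sided permutation of its values p was 0.1, the smallest that 3 against 3 libraries allow. The labelled cell type was checked on 8 noradrenergic neuroblastoma markers, whose summed level was 1670 to 1716 FPKM in shTDP43 and 1460 to 1467 FPKM in shNC. None of them was at 0 in every library, but TH, the enzyme of catecholamine synthesis, was below the tested level, and of the other 7 markers 5 were called higher and 2 lower. Over all tested genes the shares called were 18.5% higher and 19.6% lower. With the replicate number as a block, 3 of these 7 markers were called higher and 1 lower. The number higher was 3 without shTDP43 replicate 2, shTDP43 replicate 3, shNC replicate 2 or shNC replicate 3, and the number lower was 1 without any of these or shNC replicate 1. Most of the difference in the sum came from CHGA, with 520 FPKM in shTDP43 and 296 FPKM in shNC. PHOX2A stood at 80.1% of control (limma adjusted p = 0.00367), and the median log2 fold change of the tested markers was 0.086. Of 12 mesenchymal markers 8 were tested and 8 were called lower, with a summed level of 183 to 191 FPKM in shTDP43 and 319 to 326 FPKM in shNC. Only 5 were called with a minimum mean of 5 FPKM, which tests fewer genes. Of the blood, endothelial and epithelial markers 2 were tested and 1 was called lower, the keratin gene KRT18 at 17.0% of control (limma adjusted p = 0.00069). CD3E was listed at 0 in each library, and the sum over the list was 1.03 to 1.79 FPKM in shTDP43 and 2.91 to 3.54 FPKM in shNC. In such bulk samples fewer cells of a kind and less RNA per cell cannot be told apart, and the part of these marker differences in the results below was not tested.

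In each of the 5 pairs the parent gene was far above its paralog. In shTDP43 cells the ratio of mean FPKM, parent over paralog, was 395 for RPL39, 352 for RPS27, 25.7 for RPL22, 82.7 for RPL26 and 29.02 for RPL7. The corresponding ratios in shNC cells were 254, 206, 31.6, 78.4 and 29.7. RPS27 had the highest level of the 79 core ribosomal protein genes, at a mean of 13445 FPKM over the 6 libraries. Nevertheless the paralogs were no rare messages, since by their mean over all 6 libraries RPL22L1, the lowest, stood above 61.7% of the 13263 tested genes and RPL7L1, the highest, above 92.6%.

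The order of the paralogs differed between the groups. In shTDP43 cells RPL7L1 came first at 61.04 ± 2.63 FPKM, followed by RPS27L at 39.5 ± 1.88, RPL26L1 at 36.8 ± 1.27, RPL22L1 at 17.1 ± 0.651 and RPL39L at 11.1 ± 0.805 FPKM (SD, n = 3). In shNC cells RPS27L at 62.9 ± 2.40 and RPL7L1 at 60.7 ± 2.49 FPKM had overlapping values at the top. RPL26L1 followed there at 38.7 ± 0.832, RPL39L at 20.0 ± 2.69 and RPL22L1 at 12.9 ± 0.418 FPKM. RPL39L and RPL22L1 thus stood in opposite order in the groups, without overlap in either, and RPS27L was level with RPL7L1 in shNC cells and with its highest value well below it in shTDP43 cells.

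**Figure D2:**
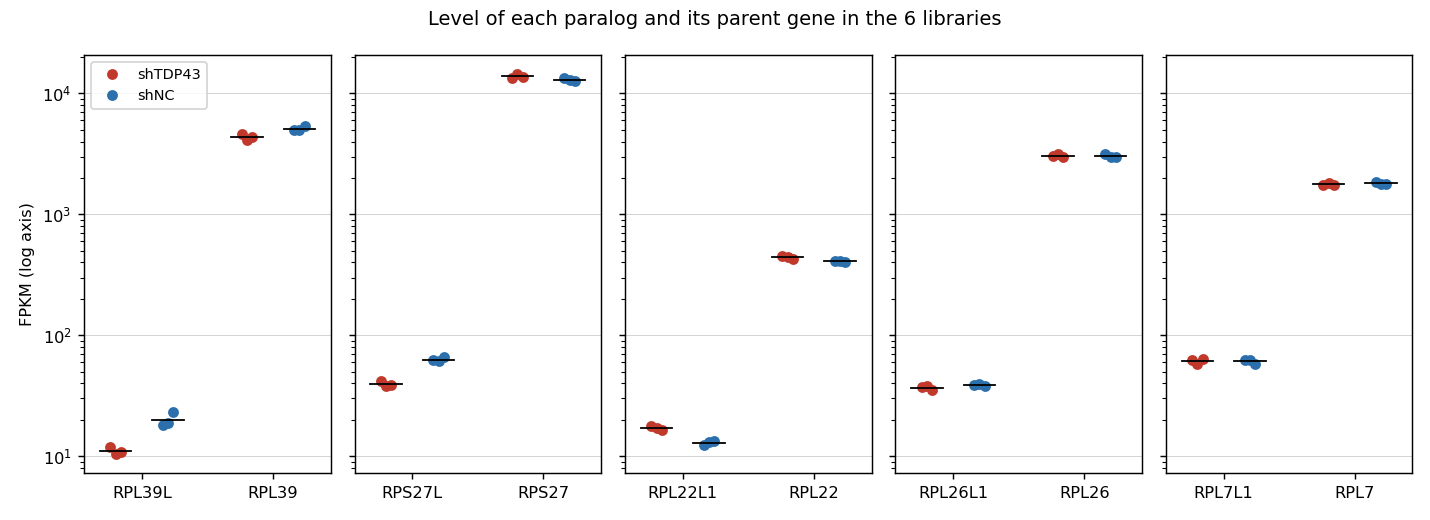
Each panel shows 1 pair, with FPKM on a log axis for the paralog (left) and the parent (right); points are the 3 shTDP43 (red) and 3 shNC (blue) libraries and lines their means. RPL39L and RPS27L lie lower in shTDP43, RPL22L1 lies higher, and each parent lies far above its paralog in both groups.

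RPL39L (GRCh38 chromosome 3, 187120948 to 187139496) was the member with the largest decrease. Its level was 12.0, 10.4 and 10.9 FPKM in the shTDP43 libraries and 18.1, 18.9 and 23.1 FPKM in the shNC libraries. All shTDP43 values lay below all shNC values, and shNC replicate 3 stood above the other 2 of its group. The mean was 55.3% of that in shNC cells, and the log2 fold change, on the log2(FPKM + 1) scale used throughout, was -0.79 (SE 0.09). It was -0.69 without shNC replicate 3.

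The parent RPL39 (chromosome X, 119786504 to 119791630) moved the same way by less. It had 4646, 4147 and 4360 FPKM in shTDP43 and 4943, 5010 and 5342 FPKM in shNC, 86.0% of the control mean, with a log2 fold change of -0.22 (SE 0.05). The groups did not overlap, and shNC replicate 3 was again the highest library. RPL39L amounted to 0.258%, 0.251% and 0.249% of RPL39 in the shTDP43 libraries and to 0.366%, 0.378% and 0.433% in the shNC libraries. The share was thus lower in each shTDP43 library than in any shNC library, and the log2 ratio of paralog to parent differed by -0.58 (SE 0.07).

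RPS27L (chromosome 15, 63148249 to 63157477) came next. It had 41.6, 37.9 and 39.1 FPKM in shTDP43 and 62.6, 60.7 and 65.5 FPKM in shNC. The gap between the groups was much wider than the spread within either. Its mean was 62.8% of the control level, with a log2 fold change of -0.66 (SE 0.04).

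RPS27 (chromosome 1, 153990762 to 153992155) had 13472, 14580 and 13672 FPKM in shTDP43 and 13512, 12865 and 12568 FPKM in shNC. Here the groups overlapped, at 107% of the control mean and a log2 difference of 0.10 (SE 0.06). RPS27L accordingly amounted to 0.309%, 0.260% and 0.286% of RPS27 in shTDP43 and to 0.463%, 0.472% and 0.521% in shNC, a difference in log2 ratio of -0.76 (SE 0.09). LACTB, a mitochondrial protein gene on the opposite strand, overlaps the RPS27L locus in GENCODE. RPL22, RPL26L1, RPL26 and RPL7 also have an overlapping gene on the opposite strand. LACTB stood at 2.82, 3.25 and 3.23 FPKM in shTDP43 and at 4.55, 4.16 and 4.05 FPKM in shNC, and no source used here says whether the counting used strand.

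RPL22L1 (chromosome 3, 170864875 to 170870195) went the other way. It had 17.8, 17.0 and 16.5 FPKM in shTDP43 and 12.5, 13.0 and 13.3 FPKM in shNC, so that all shTDP43 values were higher. The mean was 132% of control and the log2 fold change 0.38 (SE 0.04), which is above that of each of the 79 core genes.

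RPL22 (chromosome 1, 6185020 to 6199595) was slightly higher too, with 448.6, 447.5 and 423.3 FPKM in shTDP43 and 413.9, 407.98 and 404.5 FPKM in shNC, 107.6% of control (log2 fold change 0.10, SE 0.03). The groups did not overlap. RPL22L1 amounted to 3.97%, 3.79% and 3.90% of RPL22 in shTDP43 and to 3.01%, 3.20% and 3.28% in shNC, without overlap, a log2 ratio higher by 0.27 (SE 0.04). In this pair paralog and parent therefore had higher means together, and the paralog by more.

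The other 2 pairs differed little. RPL26L1 (chromosome 5, 172954094 to 172969771) had 37.2, 37.9 and 35.4 FPKM in shTDP43 and 38.4, 39.7 and 38.1 FPKM in shNC. Its groups just failed to overlap, at 95.1% of control (log2 difference -0.07, SE 0.03). RPL26 (chromosome 17, 8377516 to 8383193) overlapped between groups, with 2957 to 3158 FPKM in shTDP43 and 2964 to 3161 FPKM in shNC (100.3% of control). RPL26L1 amounted to 1.21% ± 0.018 of RPL26 in shTDP43 and 1.28% ± 0.057 in shNC (SD, n = 3), with overlapping values.

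RPL7L1 (chromosome 6, 42879616 to 42889900) had 62.1, 58.0 and 63.0 FPKM in shTDP43 and 62.4, 61.9 and 57.9 FPKM in shNC. RPL7 (chromosome 8, 73290242 to 73294466) had 1762, 1811 and 1741 FPKM in shTDP43 and 1858, 1768 and 1778 FPKM in shNC. Both overlapped between the groups, with log2 differences of 0.01 (SE 0.04) and -0.02 (SE 0.03). RPL7L1 amounted to 3.45% ± 0.216 of RPL7 in shTDP43 and 3.37% ± 0.124 in shNC.

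**Figure D3:**
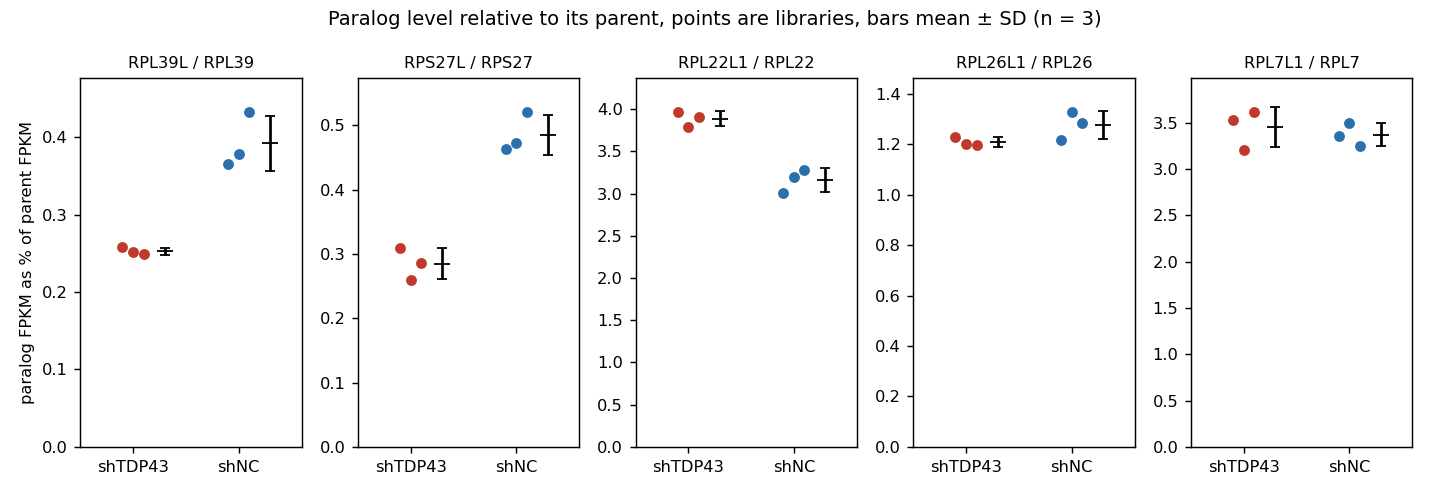
The vertical axis of each panel, which starts at 0, gives the paralog's FPKM as a percentage of its parent's; points are libraries and bars the mean ± SD of 3 libraries. The shTDP43 points lie below the shNC points for RPL39L and RPS27L, above them for RPL22L1, and among them for RPL26L1 and RPL7L1.

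Counted over members, 2 of 10 (RPL22L1 and RPL22) were called higher and 3 (RPL39L, RPL39 and RPS27L) lower in shTDP43 by limma at an adjusted p under 0.05. Over all 13263 tested genes 18.5% were called higher, 19.6% lower and 38.1% in either direction. The groups did not overlap in 6 of 10 members and in 50.7% of tested genes. Because the pairs were chosen with this contrast in view, nothing is read from these counts. The call of RPL22 was lost without shTDP43 replicate 1, shTDP43 replicate 2, shNC replicate 2 or shNC replicate 3, and when variances were moderated without a trend. The call of RPL39 was lost with quantile normalization, where its log2 fold change was -0.064. It was also lost when shNC replicate 1 and shTDP43 replicate 3 were both left out, at a log2 fold change of -0.24.

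The wider family moved little. Of 79 core ribosomal protein genes, the 5 parents among them, 12 were called higher and 10 lower, and 57 were not called. Over all tested genes 18.5% were called higher and 19.6% lower. The core median log2 fold change was -0.00, against 0.00 over all tested genes. With quantile normalization 16 core genes were called higher and 4 lower. The number higher was 7 without shTDP43 replicate 1, shTDP43 replicate 2 or shNC replicate 2, and the number lower was 6 without shTDP43 replicate 3. Of the 74 core genes that are no parents of a pair, 57 (77.0%) lay within 0.1 of no change on the log2 scale. Over all tested genes this share was 44.2%, and log2 fold changes ran from -7.76 to 5.10. Tested genes went down to a mean of 1 FPKM, and these shares were not compared at like levels. All 74 core genes lay between -0.32 and 0.24. RPL26L1 and RPL7L1 lay inside this range and RPL39L, RPS27L and RPL22L1 outside it. For RPL39L and RPS27L this restates how the pairs were chosen. RPL22L1 was also chosen with this contrast in view. The core genes had a far higher median level, 1857 FPKM, so nothing is read from its place outside their range.

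At the ends of this range stood genes of both subunits. RPS20, a small subunit protein gene, had 1433 ± 25.5 FPKM in shTDP43 and 1213 ± 21.1 FPKM in shNC (SD, n = 3), 118.2% of control. RPL37 stood at 117.5% and RPLP0, the base of the ribosomal stalk, at 112.9% of control, and all 3 rose. RPL9 had 1652 ± 28.7 FPKM in shTDP43 and 2062 ± 45.1 FPKM in shNC, 80.1% of control, and RPL31 stood at 88.6%; both fell. RPS29 was next at 90.1%, with overlapping groups, and was not called. RPL9 is thus the core gene closest to RPS27L, at a log2 fold change of -0.32 against -0.66.

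**Figure D4:**
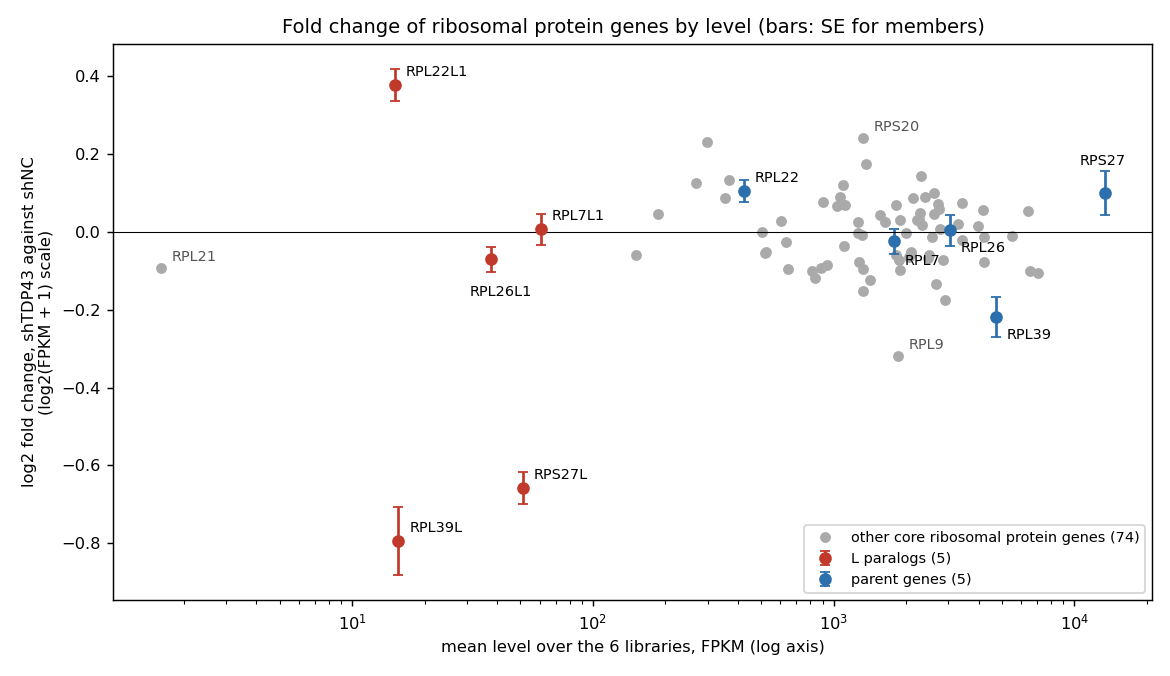
Each point is a gene, with its mean FPKM over the 6 libraries on a log axis and its log2 fold change, shTDP43 against shNC, on the vertical axis; red points are L paralogs, blue points parents and grey points the other 74 core genes, and bars are the SE of members. The grey points range from -0.32 to 0.24, and RPL39L and RPS27L lie below them, which restates how the pairs were chosen.

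RPL39 and RPS27 have among the shortest transcripts of the family, for which FPKM is most sensitive to fragment size. The 6 core genes with a transcript under 450 bases had log2 fold changes between -0.22, that of RPL39, and 0.10, that of RPS27, with a median of -0.03. Lengths were those of 1 annotated transcript per gene, such as 7686 bases for RPL37. Which transcripts these cells used is not known, so this set may miss genes with short messages. Across the 79 core genes the Spearman correlation of fold change and transcript length was 0.19, and that of fold change and level was -0.10, given as a description of genes that share the same libraries. Core gene RPL21 was listed at 1.44, 1.00 and 2.18 FPKM in shTDP43 and 1.64, 1.75 and 1.59 FPKM in shNC, whereas the next lowest core gene averaged 151.5 FPKM. Its pseudogene copy RPL21P28 averaged 15.1 ± 0.515 FPKM in shTDP43 and 15.1 ± 1.35 FPKM in shNC. RPL21 and its copy were singled out after their values were seen, and levels of genes with near-identical copies are uncertain in this table.

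The table held 3 further paralogs of ribosomal protein genes. RPL36AL, the widely expressed copy of RPL36A, had 205, 219.5 and 199 FPKM in shTDP43 and 224, 222 and 214 FPKM in shNC. These values overlapped, at 94.4% of control, and it was not called (limma adjusted p = 0.118). RPL3L, known from striated muscle, stayed at or below 0.189 FPKM in each library, and RPL10L, known from testis, was listed at 0 in all 6. Translation factor genes whose messages carry a TOP motif had a median log2 fold change of 0.00, close to that of the core genes. Of these 16 genes 4 were called higher and 3 lower (1 with quantile normalization). Over all tested genes the shares were 18.5% and 19.6%. Within 0.1 of no change lay 56.25% of the translation factor genes, against 75.9% of the 79 core genes. EEF1B2, an elongation factor subunit gene, stood at 115.6% of control, and EIF3E, an initiation factor subunit gene, at 81.8% (limma adjusted p = 0.000612 and 0.000276).

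RPS27L was set beside 24 other known targets of p53. Of these genes, 22 were tested and 14 were called lower, with a median log2 fold change of -0.29. Over all tested genes 19.6% were called lower. CDKN1A, the gene of the cell cycle inhibitor p21, stood at 26.6% of control (limma adjusted p = 1.52e-06). GDF15, a secreted growth factor gene, stood at 27.0% (limma adjusted p = 1.93e-05). Both are named as the most changed called genes of the list. The decrease of RPS27L to 62.8%, a log2 fold change of -0.66, was smaller than either and larger than the list median of -0.29. RPS27L is not counted in this list, which was drawn up with results of these data known. Nothing is therefore read from its counts, and a link of RPS27L to p53 was not tested.

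The genes whose profile was most like that of a member were found by the root mean square difference of log2(FPKM + 1), centred per gene, over the 6 libraries. This measure mostly follows the contrast between the groups, so genes with a like log2 fold change come out nearest. Over all tested genes 2606 were called lower. For RPL39L the nearest were HSPA4L (0.083), ZNF98 (0.085), CAP2 (0.091) and the antisense RNA CBR3-AS1 (0.091). HSPA4L had 6.22, 5.78 and 5.77 FPKM in shTDP43 and 11.3, 11.1 and 12.2 FPKM in shNC. For RPS27L they were SULT4A1 (0.032), TARDBP (0.034), CAST (0.039) and CAP2 (0.041). RPS27L and TARDBP had like log2 fold changes (-0.66 and -0.69), and a link between them was not tested. SULT4A1 had 4.98, 4.53 and 4.93 FPKM in shTDP43 and 7.86, 7.67 and 8.18 FPKM in shNC. No other ribosomal protein gene was among these nearest genes. This restates how the pairs were chosen, since no core gene had a log2 fold change below -0.32.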

How the data were processed

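The authors deposited FPKM values per gene symbol for 6 poly(A) RNA libraries, 3 of shTDP43 and 3 of shNC; per the submitters' processing notes, TopHat2 2.1.0, SAMtools, Cuffdiff 2.2.1 and build hg38 were used. No source used here gives the annotation, strand use, treatment of multi-mapped reads or scaling. The table holds no counts, so absolute depth is unknown and no count model was used.

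Values were analysed as log2(FPKM + 1) in R 4.3.3 with limma 3.58.1, group as the only term and a variance trend, two-sided, with Benjamini-Hochberg adjustment over the 13263 of 26372 genes that averaged 1 FPKM or more. Called means an adjusted p under 0.05. The fit was tested on simulated data. Percentages of control are ratios of mean FPKM. Fold changes on the log2 scale understate those of low genes.

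Sequences came from GENCODE 29 and RefSeq (GRCh38.p14) and were aligned with Biopython 1.88. Of the transcripts of a gene, the principal one with the best support was taken. Promoter entries matched 8 members. Named genes were the 10 members, TARDBP, the 3 largest rises and falls of other core genes, members of other lists among the 2 most changed called genes of that list, 3 other paralogs and the 4 nearest profiles of RPL39L and RPS27L. Members and lists were chosen with earlier results of these data known. Alternatives were other pseudocounts, filters, scalings and variance models, a replicate block and libraries left out. TH, CD3E, LACTB, RPL21 and RPL21P28 were named outside the rule for named genes, after their values were seen. The value of 1 listed marker gene is not reported here.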

Additional observations from a re-analysis of the deposited data

How the results depend on the processing

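All 10 members were recomputed under 15 other settings. The direction of the called members RPL39L, RPL39, RPS27L, RPL22L1 and RPL22 was the same in each, with log2 fold changes between -0.86 and -0.69 for RPL39L, -0.26 and -0.064 for RPL39, -0.69 and -0.63 for RPS27L, 0.35 and 0.40 for RPL22L1 and 0.09 and 0.14 for RPL22. TARDBP stayed lower and called in each, between -0.71 and -0.65. With quantile normalization the log2 ratio of RPL39L to RPL39 was -0.73 and that of RPS27L to RPS27 was -0.65. The SD between replicates of the RPS27L to RPS27 log2 ratio was then 0.587, against 0.108 in the main fit. RPS27 itself then had a log2 fold change of 0. Its SD between replicates was 0.572, against 0.057 in the main fit. With the same normalization RPL39 was at -0.064, the core median was 0.025, and 16 core genes were called higher and 4 lower. The cause was not tested. Without a filter 6 core genes were called lower. Without a variance trend 7 core genes were called higher and 6 lower, and 1 member was called higher. Without both shNC replicate 1 and shTDP43 replicate 3, which leaves fewer libraries, 1563 tested genes were called higher, 4 core genes were called lower and the core median was 0.026. Leaving out single libraries gave 1932 to 2093 tested genes higher, 7 to 12 core genes higher, 6 to 8 lower, a core median between -0.0088 and 0.019, and 1 to 2 members higher.

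Replicate numbers did not pair the samples: deviations of same-numbered libraries correlated at -0.07, 0.06 and 0.11. With a replicate block 2152 tested genes were called higher and 2350 lower, 9 core genes higher and 8 lower, and the calls of the 10 members did not change. With 3 libraries a group and unknown depth, differences as small as those of the RPL26 and RPL7 pairs cannot be separated from no difference.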
